A study of Homo sapiens with 6 samples.

Results

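A set of 9 genes that govern blood clotting and the activation of plasminogen was followed in MDA-MB-468-PR, a paclitaxel-exposed derivative of the human triple-negative breast cancer line MDA-MB-468, and in its parental line. The genes were a list drawn up by function (TFPI, TFPI2, F3, THBD, F2RL1, PLAU, PLAUR, PLAT and SERPINB2), and all 9 were among the 28395 Entrez genes of the count table. The list was chosen with earlier results of these data known. The resistant group held 3 libraries of MDA-MB-468-PR, which the submitters made by keeping MDA-MB-468 for 2 months with the microtubule-stabilising drug paclitaxel at 3 to 4.5 nM. The control group held 3 libraries of parental MDA-MB-468. All 6 samples were labelled untreated at harvest and grew in the same serum-containing medium. The resistant libraries all come from 1 derivative line, so an effect of the drug cannot be told apart from other changes that arose while the line was derived and cultured. The labels assign resistant replicate 1 and control replicate 1 to a batch of 2020 and the other 4 libraries to a batch of 2021, and do not say what the batch stands for.

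Coagulation in tissue begins when tissue factor, a membrane protein encoded by F3, binds factor VII, and is held back by the Kunitz-type inhibitor TFPI and by the thrombin receptor thrombomodulin (THBD). Proteases of the cascade also signal to cells by cleaving protease-activated receptors such as the product of F2RL1. Plasminogen is turned into plasmin, which dissolves fibrin and cleaves matrix proteins, by urokinase (PLAU) at its receptor (PLAUR) and by tissue-type plasminogen activator (PLAT). SERPINB2 inhibits both activators and TFPI2 inhibits plasmin. Carcinoma cells are known to carry tissue factor and the urokinase receptor on their surface.

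Total counts were 37889818 to 93680129 in the resistant libraries and 41343499 to 66475627 in the control libraries. Levels are given as CPM, which are counts relative to the library total, with totals scaled by the TMM method. A count of 0 allows up to 3 counts, which is 0.0312 to 0.0808 CPM in resistant and 0.0443 to 0.0745 CPM in control libraries. These limits cover counting error only, as reads without molecular identifiers need not stem from separate molecules. The epithelial markers EPCAM, CDH1, KRT8, KRT18 and EGFR summed to 8466 to 11190 CPM in resistant and 6482 to 8470 CPM in control libraries. EGFR made up the largest share, with a mean of 5964 CPM in resistant and 3775 CPM in control libraries, and was called higher (adjusted p = 0.0199), while the other 4 were not called. Of the receptor genes listed as low in a triple-negative line, PGR had no count. ERBB2 had 93.5 to 117 CPM in resistant and 106 to 138 CPM in control libraries. ESR1 had 0.955 to 2.32 CPM in resistant and 0.738 to 4.55 CPM in control libraries. Endothelial cells are a usual source of TFPI, THBD and PLAT. The endothelial list (PECAM1, CDH5, VWF, KDR) summed to 15.6 to 66.0 CPM in resistant and 9.28 to 25.7 CPM in control libraries. Most of that sum was KDR, with a mean of 38.7 CPM in resistant and 16.6 CPM in control libraries, while PECAM1 averaged 0.324 and 0.446 CPM. The platelet gene PF4 and the fibroblast gene LUM had no count, the fibroblast list did not exceed 0.180 CPM in resistant or 0.125 CPM in control libraries, and CD3E had 1 count in all. The leukocyte list summed to 9.26 to 15.9 CPM in resistant and 6.59 to 18.7 CPM in control libraries, nearly all of it CD14. The platelet list summed to 3.50 to 3.72 CPM in resistant and 2.81 to 2.90 CPM in control libraries, nearly all of it ITGA2B. The part of these markers in the results was not tested. In such bulk RNA, fewer cells that express a gene and less of its RNA per cell cannot be told apart.

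Promoter windows from RefSeq (GRCh38.p14), 250 bases before to 50 after a start site, were matched for 7 of the 9 genes in 8 windows, and not for THBD and PLAT. The windows of PLAU, chr10:73910360-73910659 and chr10:73910882-73911181, lie inside the bounds of the gene given below. Windows are printed for the members with the largest differences between the lines, TFPI2 and SERPINB2, and for F3 and PLAUR, which share with them a match to the AP-1 motif TGANTCA but differed less. Each reads 5′ to 3′ on the strand of the gene, and capitals mark the matches.
TFPI2, chr7:93890704-93891003, minus strand: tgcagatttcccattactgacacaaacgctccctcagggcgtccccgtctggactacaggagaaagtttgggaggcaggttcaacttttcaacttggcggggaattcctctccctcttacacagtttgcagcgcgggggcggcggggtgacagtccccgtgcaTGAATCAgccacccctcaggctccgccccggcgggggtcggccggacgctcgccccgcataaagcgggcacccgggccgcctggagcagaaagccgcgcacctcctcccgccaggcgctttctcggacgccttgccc
SERPINB2, chr18:63887455-63887754, plus strand: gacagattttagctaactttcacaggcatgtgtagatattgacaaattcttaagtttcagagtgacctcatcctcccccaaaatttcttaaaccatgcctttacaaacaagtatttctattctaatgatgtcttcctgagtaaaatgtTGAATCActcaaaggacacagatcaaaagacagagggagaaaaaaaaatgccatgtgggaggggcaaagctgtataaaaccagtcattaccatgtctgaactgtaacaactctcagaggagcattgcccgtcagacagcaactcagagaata
F3, chr1:94541710-94542009, minus strand: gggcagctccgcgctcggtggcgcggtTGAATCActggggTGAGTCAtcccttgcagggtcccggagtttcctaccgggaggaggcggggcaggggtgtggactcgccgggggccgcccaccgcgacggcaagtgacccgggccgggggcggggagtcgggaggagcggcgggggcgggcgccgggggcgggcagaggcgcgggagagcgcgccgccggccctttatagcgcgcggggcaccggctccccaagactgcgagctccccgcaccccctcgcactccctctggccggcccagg
PLAUR, chr19:43670120-43670419, minus strand: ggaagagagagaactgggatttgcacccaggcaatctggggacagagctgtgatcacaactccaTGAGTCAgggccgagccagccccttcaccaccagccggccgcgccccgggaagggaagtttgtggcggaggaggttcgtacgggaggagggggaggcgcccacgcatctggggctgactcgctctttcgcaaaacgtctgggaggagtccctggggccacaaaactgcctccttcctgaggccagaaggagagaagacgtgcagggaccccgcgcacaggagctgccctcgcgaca
The AP-1 motif, searched on both strands, was found in the windows of 4 of the 7 genes, with its first base at -87 from the start in TFPI2, -102 in SERPINB2, -223 and -210 in F3 and -186 in PLAUR. It occurs in 7.71% of all 35116 windows. The SP1 box GGGCGG, searched likewise, was found in TFPI2, F3, F2RL1 and PLAU (45.0% of all windows), and the NF-kappaB motif, written as 3 G, any 5 bases and 2 C, which can overlap the SP1 box, in 6 of the 7 genes, SERPINB2 being the exception (58.7% of all windows). In PLAU the SP1 box was found only in the window chr10:73910882-73911181. These matches describe the letters of the windows and say nothing of binding in these cells.

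Of the 9 genes, 8 passed the filter on low counts and were tested. TFPI2, PLAT and SERPINB2 rose in the resistant line and none fell, with 3 of 8 called higher where 6.23% of all 13950 tested genes were higher, 11.7% were called in either direction and 5.48% were lower (quasi-likelihood test of edgeR in a model of line and batch, p adjusted by Benjamini-Hochberg over all tested genes and called under 0.05). The median log2 fold change of the 8 genes was 0.51, beside 0.00 for all tested genes. In 4 of them (TFPI2, PLAU, PLAT and SERPINB2) every resistant library lay above every control library, which was so for 10.7% of all tested genes. The plot of expression by library shows these 4 genes beside the other 4, whose groups overlap. Because the members were chosen with earlier results of these data known, their shares describe the list and are no independent test.

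**Figure D1:**
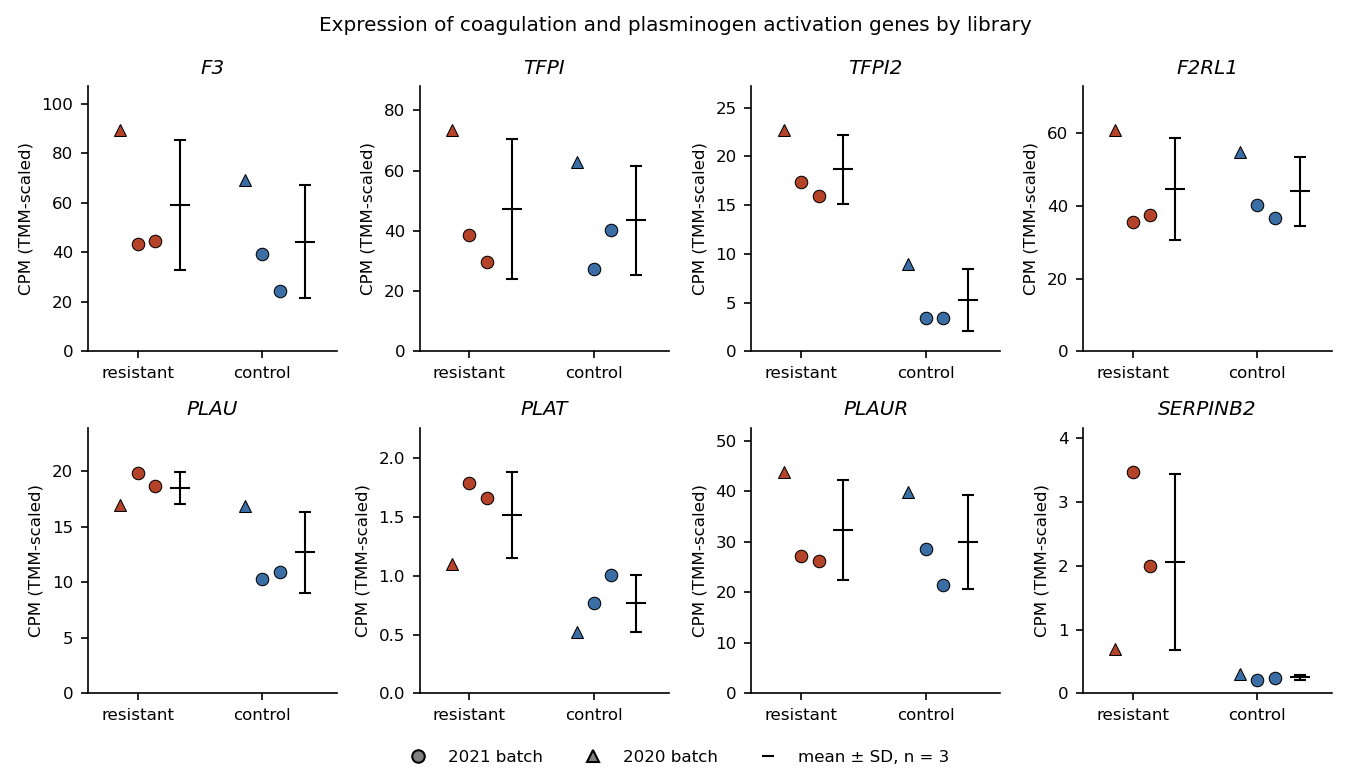
TMM-scaled CPM (y axis, linear from 0) of the 8 tested genes in the 3 resistant libraries (red, left) and the 3 control libraries (blue, right); circles are the 2021 batch, triangles the 2020 batch, and bars the mean ± SD of each group. The groups do not overlap for TFPI2, PLAU, PLAT and SERPINB2, and in F3, TFPI, F2RL1 and PLAUR the 2020 library is the highest of each group.

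F3, the gene of tissue factor (Entrez gene 2152, chromosome 1, 94529173 to 94541759, GRCh38), had the highest level per length of the 8 tested genes. It had 89.3, 43.3 and 44.7 CPM in resistant replicates 1 to 3, against 69.1, 39.2 and 24.3 CPM in control replicates 1 to 3. The groups overlapped, and both high values were the 2020 libraries. The fitted difference of 1.35-fold, a log2 fold change of 0.44 ± 0.16 SE, missed the threshold (adjusted p = 0.127). It was 0.51 in 2021 and 0.37 in 2020 on the log2 scale. With control replicate 2 left out the call was made (log2 fold change 0.64, adjusted p = 0.0251). Leaving out any other library gave no call (adjusted p 0.197 to 0.341). The log2 fold change was lowest without control replicate 3, at 0.25.

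TFPI and TFPI2, which encode related Kunitz-type inhibitors of serine proteases, did not move alike. TFPI (Entrez gene 7035, chromosome 2, 187464230 to 187554435), the inhibitor of the tissue factor complex, had 73.4, 38.7 and 29.6 CPM in the resistant libraries, against 62.8, 27.2 and 40.5 CPM in the control libraries. The groups overlapped over most of their range, and a log2 fold change of 0.08 ± 0.17 SE missed the threshold (adjusted p = 0.789).

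TFPI2 (Entrez gene 7980, chromosome 7, 93885396 to 93890753) had 22.7, 17.4 and 16.0 CPM in the resistant libraries, against 8.97, 3.41 and 3.42 CPM in the control libraries. The lowest resistant library was above the highest control library, which belonged to 2020. The 3.90-fold rise (log2 fold change 1.96 ± 0.20 SE, adjusted p = 0.0014) ranked 128 by size among the 869 genes called higher. Without the batch term the adjusted p was 0.0534. Per length, TFPI2 reached 0.523, 0.760 and 0.913 of the level of TFPI in the resistant libraries, against 0.242, 0.212 and 0.143 in the control libraries. The ratio of the inhibitors thus did not overlap between the lines.

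THBD, which encodes thrombomodulin (Entrez gene 7056, chromosome 20, 23045633 to 23049672), had 0 counts in all 3 resistant and all 3 control libraries and could not be compared. Whether the exome probes and the counting reach THBD could not be settled from the count table, so the 0 is no measure of its level.

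F2RL1 encodes protease-activated receptor 2, which trypsin-like proteases and the complex of tissue factor with activated factor VII cleave (Entrez gene 2150, chromosome 5, 76819030 to 76835315). It had 60.8, 35.5 and 37.5 CPM in the resistant libraries, against 54.8, 40.3 and 36.7 CPM in the control libraries. The groups overlapped and a log2 fold change of -0.00 ± 0.10 SE missed the threshold (adjusted p = 0.993). Its SE is the smallest of the 8 genes.

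PLAU, the gene of urokinase (Entrez gene 5328, chromosome 10, 73908832 to 73917494), had 17.0, 19.8 and 18.7 CPM in the resistant libraries, against 16.9, 10.3 and 10.9 CPM in the control libraries. The groups did not overlap, but the 2020 libraries of the lines were nearly level, at 17.0 and 16.9 CPM. Over all libraries the 1.49-fold difference, a log2 fold change of 0.58 ± 0.17 SE, missed the threshold (adjusted p = 0.0668). PLAU was called in 2021 alone (log2 fold change 0.85, adjusted p = 0.0130). The fits without resistant replicate 1 (0.85, adjusted p = 0.0137) or control replicate 1 (0.84, adjusted p = 0.0123) make nearly the same comparison. DESeq2 called PLAU as well (adjusted p = 0.0249), as did edgeR without the filter (0.0103). PLAU was not called without resistant replicate 2 or 3 or control replicate 2 or 3 (log2 fold changes 0.47 to 0.52, adjusted p 0.102 to 0.234). Nor was it with the replicate block (adjusted p = 0.109) or without the batch term (0.270). The only gene of the table that overlaps PLAU, the non-coding C10orf55, had 1 to 7 counts in a library.

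PLAT, the gene of tissue-type plasminogen activator (Entrez gene 5327, chromosome 8, 42174718 to 42207565), was scarce in both lines. It had 41, 119 and 160 counts in the resistant libraries, against 21, 43 and 68 in the control libraries. On the CPM scale these were 1.10, 1.79 and 1.66 in the resistant libraries, against 0.522, 0.769 and 1.003 in the control libraries. The groups did not overlap, with the 2020 library lowest in each. The rise was 1.98-fold (log2 fold change 0.99 ± 0.25 SE, adjusted p = 0.0346). A block for replicate numbers ended the call (adjusted p = 0.0631), as did a fit without the batch term (0.206) and the 2021 libraries alone (0.130). The call also ended without any resistant replicate and without control replicate 1 or 2 (adjusted p up to 0.137), while the log2 fold change stayed between 0.88 and 1.12. The fits without a replicate 1 compare the lines nearly as 2021 alone does.

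PLAUR encodes the urokinase receptor, which holds urokinase at the cell surface (Entrez gene 5329, chromosome 19, 43646095 to 43670169). It had 43.8, 27.3 and 26.1 CPM in the resistant libraries, against 39.8, 28.5 and 21.4 CPM in the control libraries. The groups overlapped, and a log2 fold change of 0.11 ± 0.12 SE missed the threshold (adjusted p = 0.61).

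SERPINB2, which encodes plasminogen activator inhibitor 2 (Entrez gene 5055, chromosome 18, 63887705 to 63903888), had the largest fold change of the 8 genes at a low level. It had 26, 231 and 193 counts in the resistant libraries, against 12, 12 and 16 in the control libraries. On the CPM scale these were 0.700, 3.47 and 2.00 in the resistant libraries, against 0.298, 0.214 and 0.236 in the control libraries. The groups did not overlap, and the resistant library of 2020 was far below the resistant libraries of 2021. The fitted rise was 7.72-fold (log2 fold change 2.95 ± 0.50 SE, adjusted p = 0.00806), which ranked 28 among the 869 genes called higher. Leaving out 1 library in turn kept the call, with log2 fold changes of 2.49 (without resistant replicate 2) to 3.58 (without resistant replicate 1; 3.57 without control replicate 1) and adjusted p up to 0.0475.

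Levels of different genes are set side by side per length of merged exons (GENCODE 29), as CPM per kilobase. This scaling does not correct for how well the exome probes capture each gene, so the order is a description. In the resistant line the order was F3 (25.8 ± 11.4), F2RL1 (15.3 ± 4.83), PLAUR (14.7 ± 4.48), TFPI (11.3 ± 5.54), TFPI2 (7.58 ± 1.44), PLAU (6.88 ± 0.531), SERPINB2 (0.947 ± 0.637) and PLAT (0.550 ± 0.132) CPM per kilobase (SD, n = 3). In the control line it was F3 (19.3 ± 9.96), F2RL1 (15.1 ± 3.30), PLAUR (13.6 ± 4.22), TFPI (10.4 ± 4.31), PLAU (4.73 ± 1.36), TFPI2 (2.14 ± 1.30), PLAT (0.277 ± 0.0873) and SERPINB2 (0.115 ± 0.0200) CPM per kilobase (SD, n = 3). Neighbours among the first 4 differed in both lines by less than the larger of their SDs, as did TFPI2 and PLAU in the resistant line. TFPI2 stood above PLAU in the resistant line, within that spread, and below it in the control line. SERPINB2 stood above PLAT in the resistant line, also within the spread, and below it in the control line. TFPI2 differed from TFPI by less than the SD of TFPI in the resistant line and by more in the control line. Libraries were captured with exome probes, and per kilobase of coding sequence TFPI came second, with 45.6 ± 22.3 CPM in resistant and 41.9 ± 17.3 CPM in control libraries, while the order of the other genes was the same.

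The batch touched most of these genes. In the same fit, TFPI, TFPI2, F3, F2RL1 and PLAUR were lower in 2021 than in 2020 and none was higher, so that 5 of 8 were called lower where 11.4% of all tested genes were lower in 2021 and 22.9% differed in either direction. F3 was 2.10-fold lower in 2021 (log2 fold change -1.07 ± 0.17 SE, adjusted p = 0.00578) and TFPI 2.00-fold lower (-0.999 ± 0.17 SE, adjusted p = 0.00788). F2RL1 and PLAUR were lower by less, at log2 fold changes of -0.62 ± 0.10 and -0.69 ± 0.13 SE (adjusted p = 0.00666 and 0.0096). TFPI2 had a batch term of -0.92 ± 0.20 SE (adjusted p = 0.0165). PLAU (-0.26 ± 0.18 SE), PLAT (0.70 ± 0.27 SE) and SERPINB2 (1.06 ± 0.57 SE) were not called between batches. The plot of line and batch terms shows F3, TFPI, F2RL1 and PLAUR with a batch term beyond their line term, and TFPI2 with both. These batch calls rest on the 2 libraries of 2020: without resistant replicate 1 only 1 member was called and without control replicate 1 none was, and the calls of F3, TFPI, F2RL1 and PLAUR ended without either in edgeR (F3 adjusted p up to 0.0949, TFPI up to 0.115, F2RL1 up to 0.135, PLAUR up to 0.117). The batch call of TFPI2 ended with control replicate 1 or resistant replicate 3 left out (adjusted p up to 0.243).

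**Figure D2:**
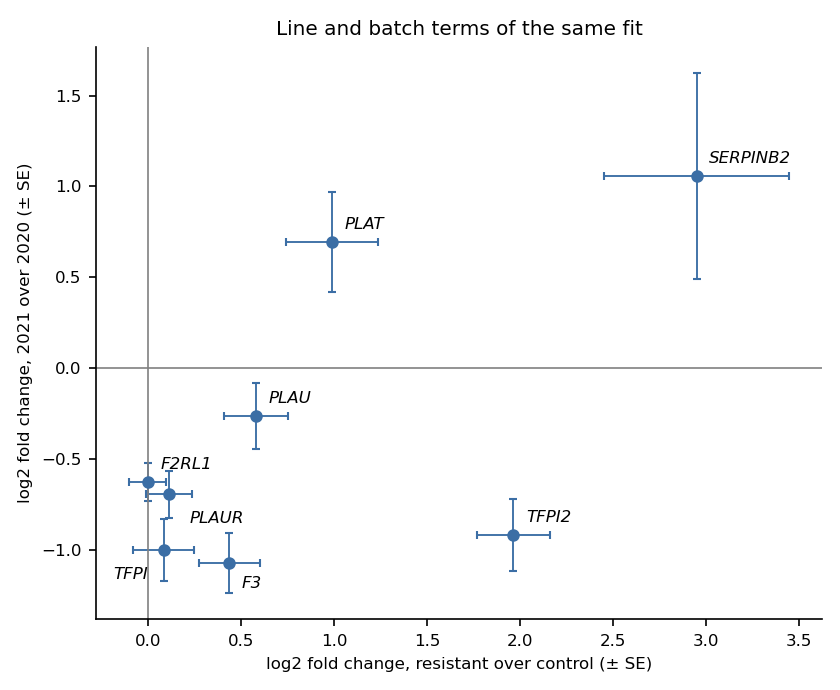
Log2 fold change of resistant over control libraries (x axis) and of 2021 over 2020 libraries (y axis) for the 8 tested genes, both from the same fit of 6 libraries, with bars for the SE. TFPI, F2RL1 and PLAUR lie near the vertical zero line at batch terms of -0.999 to -0.62. F3 (line term 0.44, batch term -1.07) and PLAU (0.58 and -0.26) lie somewhat to the right of it. TFPI2, PLAT and SERPINB2 lie farther to the right at 0.99 to 2.95.

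The difference between the lines was also taken within each batch. For PLAT it was 0.95 in 2021 and 1.04 in 2020 on the log2 scale. TFPI2 differed by 2.27 in 2021 and 1.33 in 2020, SERPINB2 by 3.37 in 2021 and 1.15 in 2020, and PLAU by 0.86 in 2021 and 0.01 in 2020. These 3 genes had the larger difference in 2021. A test of the difference between batches gave an unadjusted p of 0.00938 for TFPI2, 0.0114 for PLAU and 0.0152 for SERPINB2, and none passed the correction (edgeR adjusted p = 0.9999 for each). Over all 13950 genes 0.0% were called in that test, with 1.34% (187 genes) at an unadjusted p under 0.05, and DESeq2 called 2 genes. In 2021 alone TFPI2, PLAU and SERPINB2 were called higher, where 4.0% of all genes tested there were higher and 7.18% were called in either direction.

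**Figure D3:**
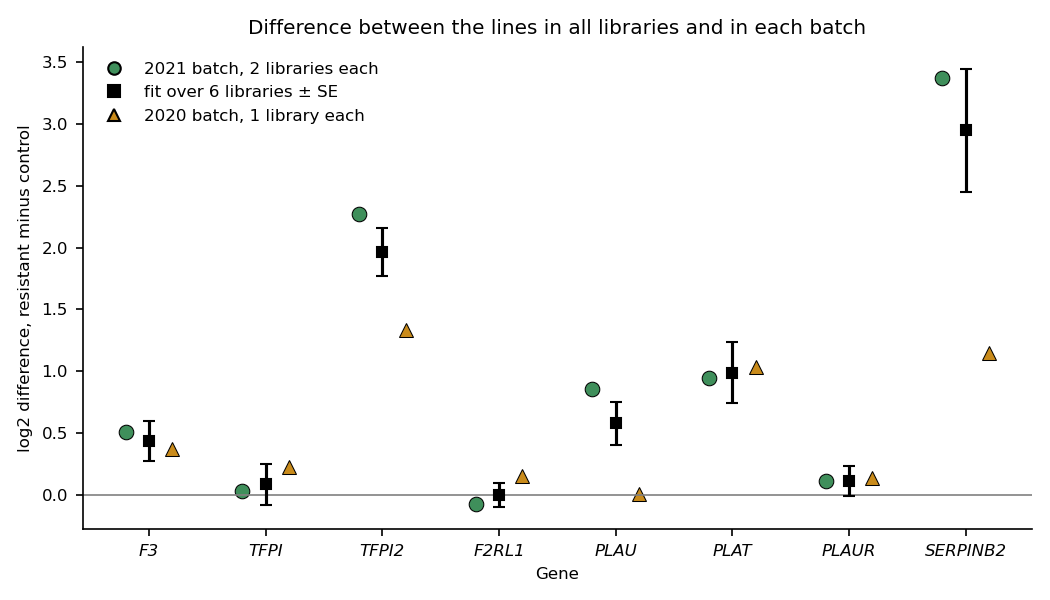
Log2 difference of resistant minus control (y axis) for each gene in the 2021 batch (circles, 2 libraries of each line), in the fit over 6 libraries (squares, with SE) and in the 2020 batch (triangles, 1 library of each line). PLAU is at 0.86 in 2021 and 0.01 in 2020 and SERPINB2 at 3.37 in 2021 and 1.15 in 2020, while PLAT is at 0.95 in 2021 and 1.04 in 2020.

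Related genes were described in 9 lists with 68 genes, of which 40 could be tested. Of these, 13 were called higher and 1 lower in the resistant line, with a median log2 fold change of 0.24, beside 6.23% higher and 5.48% lower among all tested genes. Lists of clade B serpins and of proteins around the urokinase receptor held 9 of the 13 genes that were called higher. The lists were also chosen with earlier results of these data known, so their shares are a description. Of the genes called higher, FGB, SERPINB3, SERPINB4 and SERPINB7 passed the filter on low counts only with the resistant libraries, where they are high. F7, which was not called, passed it through the control libraries, where it is higher. The shares thus depend in part on the filter.

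Among clotting factors and cofactors, 6 of 16 were tested, 2 rose and none fell (median log2 fold change 0.22). F12, the contact factor that starts the intrinsic pathway, rose 2.42-fold, with 5.87, 7.40 and 6.35 CPM in the resistant libraries, against 2.16, 3.68 and 2.30 CPM in the control libraries (adjusted p = 0.0069). FGB, a fibrinogen chain, was the other one, named after its values were seen. It had 137, 15 and 24 counts in the resistant libraries, against 22, 2 and 2 in the control libraries (log2 fold change 2.77 ± 0.35 SE, adjusted p = 0.00259). The groups of FGB overlapped, with the 2020 library highest in each, and without the batch term the adjusted p was 0.447. F7, the partner of tissue factor, had 8, 8 and 11 counts in the resistant libraries, against 15, 17 and 36 in the control libraries, and did not pass (adjusted p = 0.051). Its groups did not overlap, at a log2 fold change of -1.53 ± 0.42 SE. F7 was called lower by edgeR without the filter (adjusted p = 0.0299) and with a crossed replicate block (0.0375). It was not called by DESeq2 (0.129) or with any 1 library left out (0.0607 to 0.226). F2, F5, F9, F10, F11, F13A1, F13B, FGA, KLKB1 and KNG1 were too low to test.

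Of 5 tested anticoagulants out of 10, none was called (median log2 fold change 0.65). The most abundant was the phospholipid-binding annexin ANXA5, at 239.9 ± 32.4 CPM in resistant and 276 ± 32.8 CPM in control libraries (SD, n = 3 each; adjusted p = 0.304). PROC, the gene of protein C, and PROCR, its receptor, had log2 fold changes of 0.82 ± 0.25 and 0.92 ± 0.38 SE and did not pass (adjusted p = 0.0739 and 0.163). Among the other protease-activated receptors only the thrombin receptor gene F2R could be tested, and it was not called (6.79 ± 0.998 CPM in resistant and 7.40 ± 1.09 CPM in control libraries, SD, n = 3 each; log2 fold change -0.13, adjusted p = 0.585).

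Plasminogen itself (PLG) had 0 counts in the resistant libraries and 1 in the control libraries. Of the list of 7 that holds PLG, its surface receptors and other plasminogen-related genes, 4 receptor genes were tested and none was called (median log2 fold change -0.07). ENO1, a glycolytic enzyme that also binds plasminogen, was at 1314 ± 155 CPM in resistant and 1365 ± 239 CPM in control libraries (SD, n = 3 each; adjusted p = 0.876).

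Among inhibitors of plasminogen activators and plasmin, 4 of 6 were tested, 2 rose and 1 fell (median log2 fold change 0.70). A2M, which traps proteases of many kinds, rose 2.89-fold, with 295, 303 and 238 CPM in the resistant libraries, against 154, 89.9 and 63.3 CPM in the control libraries (adjusted p = 0.00631). Without the batch term the adjusted p of A2M was 0.0512. SERPINE2, protease nexin 1, rose 1.65-fold (adjusted p = 0.0368), a call that ended with the replicate block (adjusted p = 0.0557). SERPINE2 also lost it without any resistant replicate and without control replicate 1 or 3 (adjusted p up to 0.183). SERPINB6, an intracellular serpin on chromosome 6, fell 1.58-fold, to 36.4 ± 15.3 CPM in resistant libraries, against 55.9 ± 14.2 CPM in control libraries (SD, n = 3 each; adjusted p = 0.0143), a call that ended without resistant replicate 3 (0.0551) and without the batch term (0.406).

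Around the urokinase receptor, 7 of 8 partner and clearance genes were tested, 4 rose and none fell (median log2 fold change 0.92). MRC2, a collagen-binding endocytic receptor that associates with the urokinase receptor, rose 3.00-fold, with 7.41, 15.0 and 12.98 CPM in the resistant libraries, against 2.06, 6.06 and 4.01 CPM in the control libraries (adjusted p = 0.00224). LRP1, which internalises complexes of urokinase, inhibitor and receptor, rose 2.61-fold, with 69.1, 98.2 and 88.1 CPM in the resistant libraries, against 37.9, 30.4 and 29.4 CPM in the control libraries (adjusted p = 0.0022). LRP1 kept its call without each library in turn. ITGA3, an integrin subunit, rose 1.89-fold, to 124 ± 2.87 CPM in resistant libraries, against 65.7 ± 21.2 CPM in control libraries (SD, n = 3 each; edgeR adjusted p = 0.0236), and ITGB1, its partner subunit, named after its values were seen, rose 1.40-fold (adjusted p = 0.0348). ITGA3 lost its call without any resistant replicate or control replicate 1 (adjusted p up to 0.123). ITGB1 lost it without each library in turn (up to 0.141) and with the replicate block (0.057).

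None of 5 tested membrane serine proteases and their inhibitors out of 6 was called (median log2 fold change -0.11). ST14, the matriptase that can activate urokinase and the F2RL1 receptor, was at 354 ± 50.1 CPM in resistant and 365 ± 79.7 CPM in control libraries (SD, n = 3 each; adjusted p = 0.891). None of the 3 genes of vitamin K dependent carboxylation was called either (median log2 fold change -0.10), and GGCX, the carboxylase, was at 51.2 ± 5.91 CPM in resistant and 48.9 ± 7.16 CPM in control libraries (SD, n = 3 each; adjusted p = 0.682).

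**Figure D4:**
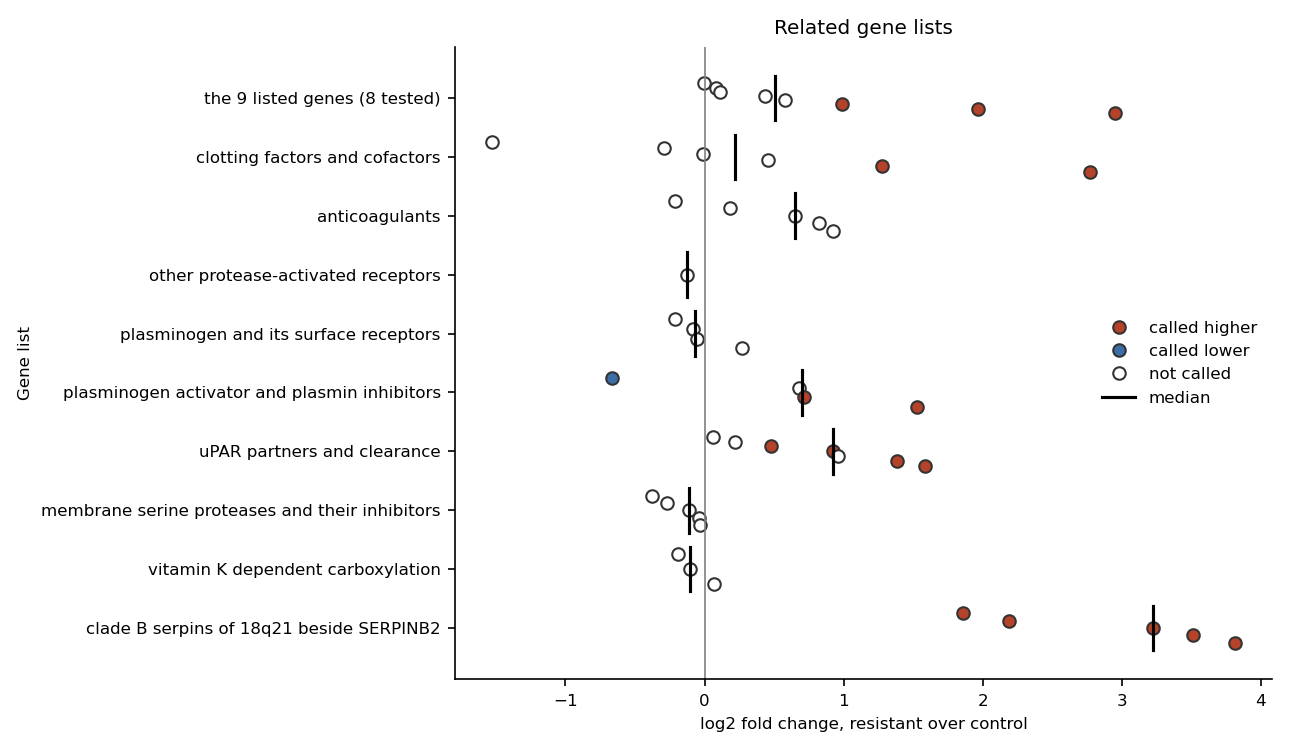
Log2 fold change of resistant over control (x axis) for every tested gene of the 9 coagulation and plasminogen activation genes and of each related list (rows); filled points were called at adjusted p under 0.05 and vertical bars are medians. All 5 tested serpins beside SERPINB2 are called higher, and the rows of membrane proteases and of vitamin K dependent carboxylation hold no filled point.

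SERPINB2 lies in a cluster of clade B serpin genes, inhibitors that mostly act within cells, on the long arm of chromosome 18. All 5 tested genes of 9 in that cluster rose with it (median log2 fold change 3.22), beside 6.23% higher among all tested genes. SERPINB3, SERPINB4 and SERPINB7 passed the filter on low counts only with the resistant libraries, where they are high. That all tested genes of the cluster rose was thus partly set by the filter. No other of the 5 nearest tested genes on each side of SERPINB2 was called. After SERPINB8, which ends at 64019779, the next tested gene, TMX3, starts at 68673688, so no gene close beyond the cluster was tested on that side. SERPINB5, the gene of maspin, had 22.5, 17.1 and 17.6 CPM in the resistant libraries, against 6.93, 5.29 and 3.82 CPM in the control libraries, a 3.62-fold rise (adjusted p = 0.000654). SERPINB7 rose 9.33-fold at a low level, with 0.889, 3.12 and 1.82 CPM in the resistant libraries, against 0.149, 0.286 and 0.177 CPM in the control libraries (adjusted p = 0.0022). SERPINB8 rose 4.57-fold, with 0.485, 2.97 and 1.71 CPM in the resistant libraries, against 0.273, 0.411 and 0.354 CPM in the control libraries (adjusted p = 0.0119). SERPINB8 was no longer called when resistant replicate 3 or control replicate 2 was left out (adjusted p up to 0.0584).

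The 5 tested genes include the close paralogs SERPINB3 and SERPINB4, named after their values were seen, between which reads may be exchanged. SERPINB3 had 34, 85 and 92 counts in the resistant libraries, against 10, 1 and 4 in the control libraries (adjusted p = 0.00793). The ratio of its summed counts, each taken relative to the summed TMM-scaled library totals of the group, was 11.5. Its 95% counting interval was 6.83 to 20.96. That interval leaves out the spread between libraries: the fitted log2 fold change of SERPINB3, 3.51 over all libraries, was 4.73 without resistant replicate 1 and 4.71 without control replicate 1. SERPINB4 had 8, 60 and 29 counts in the resistant libraries, against 4, 1 and 0 in the control libraries (adjusted p = 0.0469). The ratio of its summed counts, scaled likewise, was 15.9 (95% counting interval 6.58 to 50.1). The fitted log2 fold change of SERPINB4, 3.81 over all libraries, was 5.88 without resistant replicate 1, 5.86 without control replicate 1, 3.00 without resistant replicate 2 and 2.95 without control replicate 3. SERPINB4 lost its call without resistant replicate 2 or 3 or control replicate 2 or 3 (adjusted p up to 0.165). SERPINB10, SERPINB11, SERPINB12 and SERPINB13 had 0 to 4 counts in a resistant library and 0 to 3 in a control library.

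The neighbours of TFPI2 on chromosome 7 rose in part. Of its 5 nearest tested genes on each side, 5 of 10 were called higher and none lower, beside 11.7% of all tested genes called. They were GNG11, a G protein subunit (2.64-fold, adjusted p = 0.00441), SAMD9L and SAMD9, which restrict viruses (2.27-fold and 2.02-fold, adjusted p = 0.036 and 0.0106), the cell cycle kinase CDK6 (1.92-fold, adjusted p = 0.00475) and PEG10, a retrotransposon-derived gene (1.72-fold, adjusted p = 0.00873). The other 5 genes, FAM133B, VPS50, BET1, CASD1 and SGCE, were not called, with log2 fold changes of 0.01 to 0.26. Leaving out resistant replicate 3 ended the calls of SAMD9 (adjusted p = 0.068) and PEG10 (0.0502). SAMD9L lost it without any resistant replicate, without control replicate 1 or 2 (up to 0.136) and with the replicate block (0.0604). Without the batch term SAMD9 was the only one of the 5 called, and the adjusted p of CDK6 was 0.827.

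**Figure D5:**
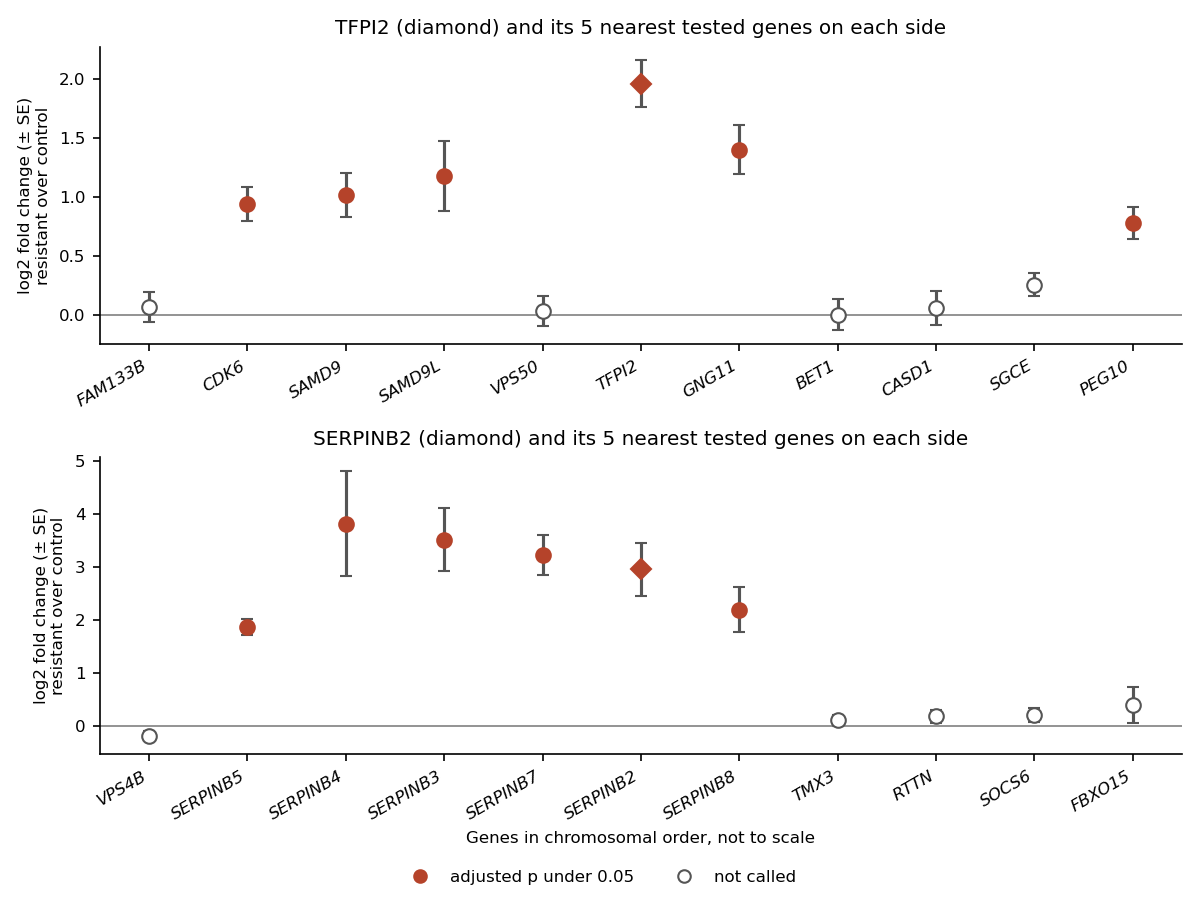
Log2 fold change of resistant over control with SE (y axis) for TFPI2 (upper panel) and SERPINB2 (lower panel), drawn as diamonds, and for their 5 nearest tested genes on each side in chromosomal order, not to scale (x axis); filled points were called. The called neighbours of TFPI2 stand on both sides of it, as do uncalled ones at 0.01 to 0.26, and those of SERPINB2 are the 5 serpins, at 1.86 to 3.81.

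None of the 10 nearest tested genes was called around TFPI, F3, THBD, PLAU, PLAUR or PLAT. Around F2RL1 the scaffold gene IQGAP2 rose 1.88-fold (adjusted p = 0.0319), a call that ended without any resistant replicate or control replicate 1 (adjusted p up to 0.148). The median log2 fold change of the 10 neighbours was 0.52 around TFPI2 and 1.13 around SERPINB2, and between -0.13 and 0.20 around the other 7 genes.

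Profiles over the 6 libraries were also set against those of 10517 genes with a mean of at least 5 CPM, as a description, since the libraries share line and batch. The closest to TFPI2 were SLFN5 and CCDC80 (Pearson correlation of log2 CPM 0.999 and 0.994). ADAMTS7 and ADGRE2 were closest to PLAT (0.995 and 0.994), and MBOAT2 and MMP14 to SERPINB2 (0.993 and 0.989). SLFN5, CCDC80, ADAMTS7, ADGRE2 and MMP14 were called higher as well, by 1.35-fold to 1.78-fold, and MBOAT2 was not (adjusted p = 0.119). CCDC80 lost its call without each library in turn (adjusted p up to 0.168) and with the replicate block (0.063). ADAMTS7 lost it without any resistant replicate or control replicate 1 (up to 0.0976), and MMP14 without resistant replicate 2 or 3 (up to 0.0645).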

How the data were processed

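RNA of 6 samples was sequenced after capture of cDNA with exome probes, per the labels' protocols. Trimmomatic 0.38, STAR 2.7.8a, featureCounts of Subread and the build GRCh38 are named per the submitters' processing notes; the sources used here do not give the strand setting, the handling of multiple matches or the annotation release. The deposited file holds raw counts per Entrez gene, as whole numbers, 1 column a library. RefSeq names (GRCh38.p14) matched 27745 of 28395 IDs.

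Genes were filtered with filterByExpr by group, leaving 13950, scaled by TMM and tested with edgeR 4.0.16 (glmQLFit, robust, 3 residual degrees of freedom; R 4.3.3), with line and batch as terms. SEs derive from the F statistic, and log2 CPM used a prior count of 2. The test of a difference between batches left 2 degrees of freedom. The members and lists were chosen with earlier results of these data known. All 9 members are named; in related lists (clotting factors, anticoagulants, receptors, plasminogen receptors, inhibitors, urokinase receptor partners, membrane proteases, carboxylation, serpins) up to 3 called genes in each direction with mean CPM of 1 or more, or else the most abundant one. A gene of the inhibitor list is not reported here.

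Deviations from the group mean of same-numbered libraries correlated across genes at 0.729, 0.143 and 0.155, each above 0.1, so the replicate number was used as a block in an alternative fit; this pairing comes from the data, and crossed numbers within 2021 correlated more (0.57 and 0.477). Chi-square over its degrees of freedom was 70.0 to 215 between replicates, above counting noise. No label states that replicates came from different cultures; p-values therefore reflect the spread of these libraries, which may be technical. Alternatives were other scalings and filters, DESeq2 1.42.0, limma 3.58.1 voom, a model without batch, a replicate block, only the 2021 libraries, and each library left out. A fit without the robust prior and a crossed block were added after the data were seen.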

Additional observations from a re-analysis of the deposited data

How the results depend on the processing

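The number of genes called between the lines was 1633, and fell to 362 without the batch term and 1012 in 2021 alone. Leaving out 1 library gave 617 (without resistant replicate 3) to 1985 (without control replicate 3). With the replicate block 1303 genes and 2 of the 9 members were called, since PLAT lost its call, and the block changed no other call of a named gene than those of PLAT, SERPINE2, ITGB1, SAMD9L and CCDC80. Of the members, 3 were called; without the batch term 1 was (SERPINB2), and leaving out 1 library gave 2 to 3. Between batches, 3196 genes and 5 members were called; leaving out 1 library gave 262 to 4357 genes and 0 to 5 members, with the lowest counts where the batch of 2020 kept 1 library. The test of a difference between batches called 0 genes with edgeR, 2 with DESeq2 and 0 to 4 without a library of 2021; it cannot be run without a library of 2020. The crossed block called 2254 genes and 4 members, F3 among them (adjusted p = 0.0437). Without the batch term, SERPINB2, F12, LRP1, SERPINB3, SERPINB5, SERPINB7 and SAMD9 were the named genes called in the full model that were also called. In 2021 alone PLAT, ITGA3, ITGB1, SERPINE2, SAMD9L, IQGAP2, CCDC80 and ADAMTS7 were not called. No named gene changed direction with a call under any alternative. The cell type markers, EGFR among them, were not followed through the alternatives and are not counted among the named genes here. Other scalings moved the median of all genes by 0.04 at most on the log2 scale. PLAT and SERPINB2 rest on 12 to 231 counts in a library, which limits their precision, and SERPINB2 kept its call under all 17 alternatives.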
